A study of Mus musculus with 12 samples.

Results

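Homeostatic microglia genes are the receptors, surface proteins and transcription factors that resting microglia of the adult brain express at high levels. This account covers 9 of them, Csf1r, Cx3cr1, P2ry12, Tmem119, Gpr34, Mertk, Siglech, Sall1 and Spi1, chosen by name among the 21834 genes of the count table. They were measured by RNA-seq in BV2, an immortalized mouse microglial cell line. Cells carried a lentiviral pLKO.1 vector with either a control hairpin (the shCtrl line) or a hairpin that targets Anxa2 (the shAnxa2 line) and had been selected with puromycin, so vector and selection are common to all groups. The shCtrl-CTRL and shAnxa2-CTRL groups were left untreated. The shCtrl-OGDR and shAnxa2-OGDR groups went through oxygen-glucose deprivation for 4 h and reoxygenation for 12 h (OGD/R), a culture model of ischemia and reperfusion. The times are those of the labels, and the study's methods give a longer reoxygenation. Each group had 3 libraries, 12 in all, and each hairpin is represented by 1 line, so a difference between the lines other than Anxa2 cannot be told apart from the knockdown. Groups follow the sample titles, because a second label assigns the knockdown by treatment and conflicts with them.

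In the brain, microglia depend on CSF1R, the receptor tyrosine kinase for the cytokines CSF1 and IL-34, for survival. The transcription factor PU.1, encoded by Spi1, specifies the macrophage lineage, and SALL1 keeps microglia apart from other macrophages. CX3CR1 and P2RY12 receive signals from neurons and from extracellular nucleotides, and the kinase MERTK drives the uptake of dying cells. Several homeostatic genes are known to fall when microglia leave the brain for culture or become activated.

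Library totals ranged from 19521877 to 27288843 counts, with a median of 24531756.5, and the common biological coefficient of variation was 5.35%. Anxa2, the targeted gene, stood at 171.7 ± 6.36 CPM (counts scaled by library total and TMM factor, SD, n = 3) in shCtrl-CTRL, 278.9 ± 24.3 in shCtrl-OGDR, 40.4 ± 4.86 in shAnxa2-CTRL and 19.6 ± 1.26 in shAnxa2-OGDR. The hairpin in the titles and the targeted gene thus went together. After OGD/R, Anxa2 rose in shCtrl cells (log2 fold change 0.70) and fell in shAnxa2 cells (-1.04). Anxa2 therefore does not check the treatment in the titles, which was not tested. All 15 macrophage-lineage markers, among them Lyz2, Cd68, Itgam and Csf1r itself, passed the filter on low counts, and their summed level ranged from 5194 to 5680 CPM in the shCtrl libraries and from 4475 to 4866 in the shAnxa2 libraries. Aqp4, Snap25, Gad1, Nefl, Mog, Dcn and Lum, defining markers of astrocytes, neurons, oligodendrocytes and fibroblasts, were at 0 in every library. Of those lists, 2 of 8 astrocyte, 1 of 8 neuron, 3 of 8 oligodendrocyte and 0 of 6 fibroblast markers passed the filter. The summed levels reached 41.2, 1.67, 37.0 and 0.460 CPM, and the listed markers Aldoc and Cnp made up most of the astrocyte and oligodendrocyte sums. Without Cnp, the oligodendrocyte sum was at most 6.81 CPM. The astrocyte sum, without Aldoc at most 1.16 CPM, was 19.5 to 22.4 in shCtrl-CTRL, 39.5 to 41.2 in shCtrl-OGDR, 33.8 to 39.4 in shAnxa2-CTRL and 20.5 to 25.3 in shAnxa2-OGDR, and its part in the results was not tested.

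Of the 9 genes, 6 were expressed above the filter (at least 0.5 CPM in at least 3 libraries), which 11626 of 21834 genes passed. Sall1 was not detected, Siglech was at the edge of detection, and Gpr34 was present at trace level. Levels were compared between genes after division by exon length. On that scale, the mean level over 12 libraries in CPM per kb of exon, Spi1 (116) and Csf1r (84.0) exceeded 96.9% and 95.5% of the genes tested. Mertk (2.90), Tmem119 (2.44), Cx3cr1 (0.942) and P2ry12 (0.821) exceeded 29.2%, 26.3%, 15.9% and 14.9% of them. Gpr34 (0.0988) exceeded 1.89%, and Siglech (0.0113) exceeded none.

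**Figure D1:**
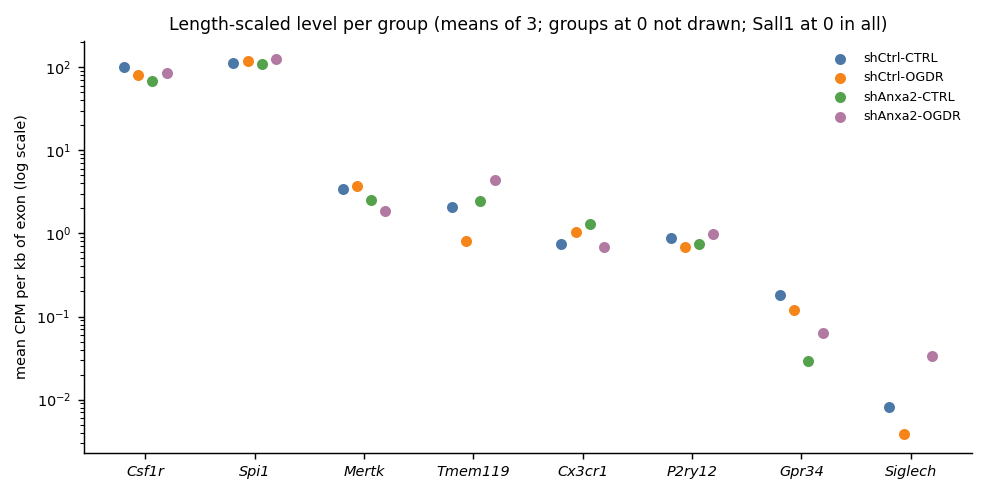
Mean level per group in CPM per kb of exon on a log axis, for 8 of the 9 genes (each point is the mean of 3 libraries, colours mark the groups, a group at 0 is not drawn). Spi1 and Csf1r lie far above the other genes in every group, and Gpr34 and Siglech lie lowest.

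Sall1 encodes the zinc-finger factor that maintains microglial identity. No count fell on Sall1 (ENSMUSG00000031665, minus strand of chromosome 8 from 89753863 to 89770790 in the mm39 coordinates of the table) in any of the 12 libraries. A count of 0 allows up to 3 counts per library, or 0.110 to 0.154 CPM, for counting error only. Sall3, a relative of Sall1 that was picked out after its values were seen, did pass the filter, and it was lower in shAnxa2-CTRL than in shCtrl-CTRL, with a log2 fold change of -0.63 (edgeR adjusted p = 0.00067). In that comparison 59.2% of all genes tested were called, 29.7% of them all as lower.

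Siglech encodes a sialic acid-binding lectin that separates microglia from most other macrophages. Siglech (ENSMUSG00000051504, plus strand of chromosome 7 from 55417926 to 55428673) had 10 counts in all. The 3 libraries held 2, 0 and 0 counts in shCtrl-CTRL, 1, 0 and 0 in shCtrl-OGDR, 0, 0 and 0 in shAnxa2-CTRL and 2, 1 and 4 in shAnxa2-OGDR. Of the 10 counts, 7 lay in shAnxa2-OGDR, and 1 of its libraries, with 4 counts, was the only library above the limit that a count of 0 allows. When genes with low counts were kept in the fit, no comparison of Siglech was called, and the smallest adjusted p, for OGD/R in shAnxa2, was 0.063.

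Gpr34 encodes a lysophosphatidylserine receptor. Gpr34 (ENSMUSG00000040229, plus strand of chromosome X from 13498328 to 13507097) had counts in all 12 libraries, 60 in total, with 17, 4 and 8 in shCtrl-CTRL, 4, 10 and 4 in shCtrl-OGDR, 1, 2 and 1 in shAnxa2-CTRL and 2, 5 and 2 in shAnxa2-OGDR. The shAnxa2 libraries held 13 of the 60 counts. In the fit without a filter, the log2 fold change of shAnxa2-CTRL against shCtrl-CTRL was -2.53 ± 0.87 (SE, edgeR adjusted p = 0.010), and no other comparison of Gpr34 was called. That value rests on 4 counts against 29, of which 17 lay in shCtrl-CTRL replicate 1, and libraries were not left out in turn for it. In that fit and comparison, 3571 of 16198 genes were called higher and 3406 lower. Gpr34 lies inside Cask, which is on the opposite strand at 17.8 to 36.1 CPM, and the library kit does not mark the strand. No exon bases are shared in the GENCODE annotation of GRCm38, but unspliced Cask RNA cannot be told apart from Gpr34 in these counts. Cask too was lower in shAnxa2-CTRL than in shCtrl-CTRL (log2 fold change -0.32 ± 0.07, edgeR adjusted p = 0.00061), and its part in the Gpr34 value was not tested.

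Sequences before the start sites of a silent and an expressed gene are shown for orientation. RefSeq promoters (build GRCm38.p6, not the build of the table) were given for 5 of the 9 genes, with 7 start sites, and not for Csf1r, Tmem119, Gpr34 and Spi1. The 250 bases before the Mertk start, at chr2:128698665-128698914 on the plus strand, and before the first of 3 Sall1 starts, at chr8:89044163-89044412 on the minus strand, follow from 5′ to 3′ with CG pairs in capitals.
Mertk: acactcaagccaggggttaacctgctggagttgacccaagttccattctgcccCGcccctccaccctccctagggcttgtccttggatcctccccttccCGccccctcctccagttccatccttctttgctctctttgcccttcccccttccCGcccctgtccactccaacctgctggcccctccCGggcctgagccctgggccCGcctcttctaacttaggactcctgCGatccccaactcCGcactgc
Sall1: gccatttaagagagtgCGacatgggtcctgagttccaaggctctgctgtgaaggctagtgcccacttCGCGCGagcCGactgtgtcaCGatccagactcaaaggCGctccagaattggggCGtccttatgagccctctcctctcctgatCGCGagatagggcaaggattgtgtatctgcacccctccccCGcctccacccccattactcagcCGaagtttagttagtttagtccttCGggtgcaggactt
The Mertk stretch holds 7 CG pairs at 63.6% GC and the Sall1 stretch 13 at 56.4%, beside medians of 6 pairs and 52.4% over the 250 bases before the start in 32851 promoters. The stretches of the same length before the other two Sall1 starts hold 25 pairs at 74.4% GC and 30 pairs at 78.4% GC. The letters GAGGAA, the core of the motif bound by PU.1, were searched on both strands in the 300 bases around each start (250 before and 50 after). They occurred at 1 of the 7 starts, that of Siglech, and in 28.3% of all promoters.

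Among the receptors, Csf1r was the most abundant (ENSMUSG00000024621, plus strand of chromosome 18 from 61233670 to 61265221). Its levels were 579, 584 and 589.8 CPM in shCtrl-CTRL, 449, 472 and 462 in shCtrl-OGDR, 404, 388 and 403 in shAnxa2-CTRL and 498, 486 and 504 in shAnxa2-OGDR. Untreated shCtrl cells were highest, untreated shAnxa2 cells lowest, and no ranges of 2 groups overlapped. OGD/R lowered Csf1r in shCtrl cells (log2 fold change -0.34 ± 0.04, edgeR adjusted p = 2.7e-07) and raised it in shAnxa2 cells (0.32 ± 0.04, adjusted p = 1.5e-06). The difference of these changes, the interaction, was 0.66 ± 0.06 (adjusted p = 1.05e-09). Without OGD/R, Csf1r was 1.47-fold lower in shAnxa2 than in shCtrl cells (log2 fold change -0.55 ± 0.04, adjusted p = 1.3e-10). After OGD/R the lines differed by 0.10 ± 0.04 (adjusted p = 0.037), and this call was lost under 4 other settings (adjusted p from 0.052 to 0.141) and without shCtrl-OGDR replicate 1 or 3 or shAnxa2-OGDR replicate 1 or 3 (0.071 to 0.118). Hmgxb3, on the opposite strand at 84.1 to 116.3 CPM, shares 873 of the 5774 exon bases of Csf1r in GRCm38. Its log2 fold changes were -0.13 ± 0.05 for OGD/R in shCtrl cells (adjusted p = 0.025), 0.25 ± 0.05 for OGD/R in shAnxa2 cells (0.00012), 0.02 for the knockdown without OGD/R (0.726) and 0.39 ± 0.05 after it (1.0e-07), with an interaction of 0.37 ± 0.07 (3.1e-05). The signs of the OGD/R changes and of the interaction were those of Csf1r, and the part of Hmgxb3 reads in the Csf1r counts was not tested. In bulk RNA, fewer cells that express a gene and less RNA per cell cannot be told apart.

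Mertk (ENSMUSG00000014361, plus strand of chromosome 2 from 128540876 to 128644814) was measured at 16.96, 12.8 and 14.8 CPM in shCtrl-CTRL, 17.3, 16.9 and 14.7 in shCtrl-OGDR, 12.4, 10.9 and 9.57 in shAnxa2-CTRL and 8.73, 6.99 and 8.73 in shAnxa2-OGDR. Every shAnxa2 library was below every shCtrl library. The shCtrl groups overlapped, and the log2 fold change of OGD/R in shCtrl cells was 0.14 (95% limits -0.08 to 0.36, edgeR adjusted p = 0.277). In shAnxa2 cells OGD/R lowered Mertk by a log2 fold change of -0.43 ± 0.13 (adjusted p = 0.0069). That call was lost without shAnxa2-CTRL replicate 1 (-0.33, adjusted p = 0.051) or shAnxa2-OGDR replicate 2 (-0.32, 0.060). Compared with shCtrl cells, shAnxa2 cells had less Mertk both without OGD/R (-0.44 ± 0.12, adjusted p = 0.0025) and after it (-1.01 ± 0.12, 9.6e-08), the latter a 2.02-fold difference. The interaction was -0.57 ± 0.17 (adjusted p = 0.0048).

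Cx3cr1, the receptor for the neuronal chemokine CX3CL1 (ENSMUSG00000052336, minus strand of chromosome 9 from 119730682 to 119898945), went the other way from Csf1r. It stood at 3.59, 3.33 and 3.16 CPM in shCtrl-CTRL, 4.03, 5.84 and 4.25 in shCtrl-OGDR, 5.33, 6.35 and 5.88 in shAnxa2-CTRL and 3.47, 3.02 and 2.67 in shAnxa2-OGDR, from 55 to 153 counts per library. The levels of shAnxa2-CTRL and shCtrl-OGDR overlapped at the top, and those of shCtrl-CTRL and shAnxa2-OGDR overlapped at the bottom. OGD/R raised Cx3cr1 in shCtrl cells (log2 fold change 0.50 ± 0.16, edgeR adjusted p = 0.010), but without shCtrl-OGDR replicate 2 the value was 0.30 and not called (adjusted p = 0.135). In shAnxa2 cells OGD/R lowered it 1.92-fold (-0.94 ± 0.17, adjusted p = 4e-05). Cx3cr1 was 1.74-fold higher in shAnxa2 than in shCtrl cells without OGD/R (adjusted p = 0.00013) and 1.55-fold lower after it (adjusted p = 0.0020), with an interaction of -1.44 ± 0.23 (6.6e-06). The gene model in the table spans Wdr48, Gorasp1, Ttc21a, Csrnp1 and Xirp1, which share no exon bases with Cx3cr1 in GRCm38. The most abundant of these, Wdr48 and Gorasp1, stood at 67.4 to 77.8 and 28.3 to 44.9 CPM. The part of reads from these genes in the Cx3cr1 counts was not tested.

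P2ry12, the ADP receptor that guides microglial processes (ENSMUSG00000036353, minus strand of chromosome 3 from 59123693 to 59170292), rested on 28 to 72 counts per library. Its levels were 1.92, 2.64 and 2.10 CPM in shCtrl-CTRL, 1.45, 1.64 and 2.10 in shCtrl-OGDR, 2.20, 1.35 and 2.11 in shAnxa2-CTRL and 2.40, 2.66 and 2.52 in shAnxa2-OGDR. Neighbouring groups in the order of means overlapped throughout, while shAnxa2-OGDR did not overlap shAnxa2-CTRL or shCtrl-OGDR. No change was called for OGD/R in shCtrl cells (log2 fold change -0.38, 95% limits -0.82 to 0.06), for OGD/R in shAnxa2 cells (0.42, -0.02 to 0.86) or for the knockdown without OGD/R (-0.23, -0.67 to 0.20). After OGD/R it was 1.48-fold higher in shAnxa2 than in shCtrl cells (0.57 ± 0.23, edgeR adjusted p = 0.029), and the interaction was 0.80 ± 0.32 (adjusted p = 0.028). The first call was lost without shCtrl-OGDR replicate 1 or 2 or shAnxa2-OGDR replicate 2 or 3 (adjusted p from 0.052 to 0.108). The interaction was lost without shCtrl-CTRL replicate 2, shCtrl-OGDR replicate 1 or 2, shAnxa2-CTRL replicate 2 or shAnxa2-OGDR replicate 2 (0.052 to 0.078). Med12l runs through P2ry12 on the opposite strand, shares 9 of 2546 exon bases with it in GRCm38 and stood at 1.00 to 3.09 CPM. The interaction of Med12l was -1.45 ± 0.35 (adjusted p = 0.00069), and the part of its reads in the P2ry12 counts was not tested.

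Tmem119, a transmembrane protein used to tell microglia from other brain macrophages, showed the widest difference of the 6 genes tested, between the lines after OGD/R (ENSMUSG00000054675, minus strand of chromosome 5 from 113931790 to 113938577). The counts were 115, 132 and 132 in shCtrl-CTRL, 36, 48 and 46 in shCtrl-OGDR, 119, 108 and 148 in shAnxa2-CTRL and 192, 269 and 213 in shAnxa2-OGDR. In CPM these were 4.80, 4.84 and 4.85, then 1.41, 1.83 and 2.36, then 5.82, 5.20 and 5.88, and last 9.80, 10.7 and 10.3. The ranges of all 4 groups stood apart, with shAnxa2-OGDR at the top and shCtrl-OGDR at the bottom. OGD/R lowered Tmem119 2.63-fold in shCtrl cells (log2 fold change -1.40 ± 0.16, edgeR adjusted p = 6.8e-08) and raised it 1.82-fold in shAnxa2 cells (0.87 ± 0.13, adjusted p = 4e-06). After OGD/R it was 5.60-fold higher in shAnxa2 than in shCtrl cells (2.49 ± 0.15, adjusted p = 5.2e-13), and the interaction was 2.26 ± 0.21 (7.3e-10). Untreated, the lines differed by 0.22 (95% limits -0.05 to 0.49, adjusted p = 0.166), which was not called.

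Spi1, encoding PU.1, had the smallest log2 fold change of the 6 in each comparison (ENSMUSG00000002111, plus strand of chromosome 2 from 90912735 to 90946101). It was measured at 296, 309.9 and 302 CPM in shCtrl-CTRL, 306, 325 and 322 in shCtrl-OGDR, 289, 282 and 313 in shAnxa2-CTRL and 337, 323 and 341 in shAnxa2-OGDR. Neighbouring groups overlapped, while the 2 shAnxa2 groups did not overlap each other. OGD/R raised Spi1 1.13-fold in shAnxa2 cells (log2 fold change 0.18 ± 0.05, edgeR adjusted p = 0.0038). The other values were 0.07 for OGD/R in shCtrl cells (95% limits -0.03 to 0.17), -0.04 for the knockdown without OGD/R (-0.13 to 0.06) and 0.07 after it (-0.03 to 0.17), and none was called.

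**Figure D2:**
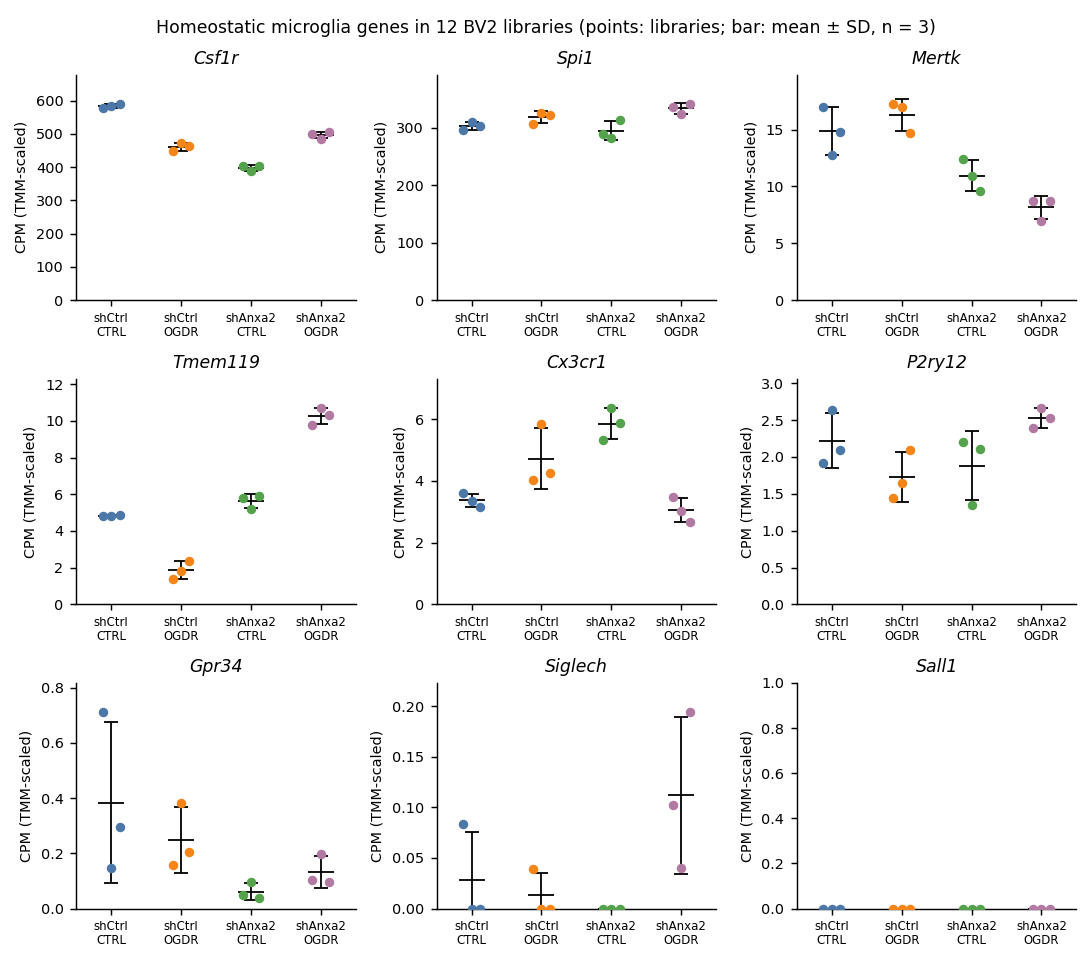
TMM-scaled CPM of the 9 genes in the 12 libraries, by group (points are libraries, the black bar is the mean and SD of 3, and each vertical axis starts at 0). Tmem119 was highest in shAnxa2-OGDR, at 9.80 to 10.7 CPM, Csf1r was highest in shCtrl-CTRL, and all points of Sall1 lie at 0.

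Counted over the 6 genes tested, OGD/R in shCtrl cells raised 1 (Cx3cr1) and lowered 2 (Csf1r and Tmem119), while 32.4% of all genes tested rose and 31.0% fell (63.4% in all). OGD/R in shAnxa2 cells raised 3 (Csf1r, Tmem119 and Spi1) and lowered 2 (Cx3cr1 and Mertk), beside 28.2% and 26.8% of all genes (55.0% in all). The knockdown without OGD/R went with 1 gene higher (Cx3cr1) and 2 lower (Csf1r and Mertk), beside 29.5% and 29.7% (59.2% in all). After OGD/R, 3 were higher in shAnxa2 cells (Tmem119, P2ry12 and Csf1r) and 2 lower (Mertk and Cx3cr1), beside 33.8% and 34.2% (67.9% in all). The interaction was called for 5 of 6, 3 higher and 2 lower, beside 34.9% and 35.1% of all genes (70.0% in all). Library ranges of the 2 groups compared did not overlap for 3, 6, 4 and 5 of the 6 genes in the first 4 comparisons, beside 68.0%, 58.9%, 63.6% and 69.9% of all genes. Leaving out shCtrl-OGDR replicate 2 took the first count of genes raised to 0, and single libraries also took the 2 genes lowered by OGD/R in shAnxa2 cells to 1 (shAnxa2-CTRL replicate 1 or shAnxa2-OGDR replicate 2) and the 3 genes higher after OGD/R to 1 (shCtrl-OGDR replicate 1 or shAnxa2-OGDR replicate 3). The 3 genes with a higher interaction became 2, without P2ry12, when any of the 5 libraries named with that gene was left out. With a log2 fold change of at least 1 required as well, the calls that remained were Tmem119 for OGD/R in shCtrl cells, Tmem119 and Mertk for the knockdown after OGD/R, and Tmem119 and Cx3cr1 for the interaction. Mertk fell short of this rule, at -0.97, -0.98 and -0.90, without shCtrl-OGDR replicate 1, shCtrl-OGDR replicate 2 or shAnxa2-OGDR replicate 2. Such calls covered 6.73%, 10.1% and 21.5% of all genes tested in those comparisons. None of the 6 met this rule for OGD/R in shAnxa2 cells or for the knockdown without OGD/R, where 3.54% and 5.68% of all genes did.

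The OGD/R changes of the 2 lines rest on different libraries. Their signs were opposite for 5 of the 6 genes (83.3%), with Spi1 the exception, and for 9536 of the 11626 genes tested (82.0%). The share among the homeostatic genes was thus near that of all genes. Treatment follows the sample titles, and exchanged treatment titles within a line would turn the sign of its OGD/R changes. This was not tested.

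**Figure D3:**
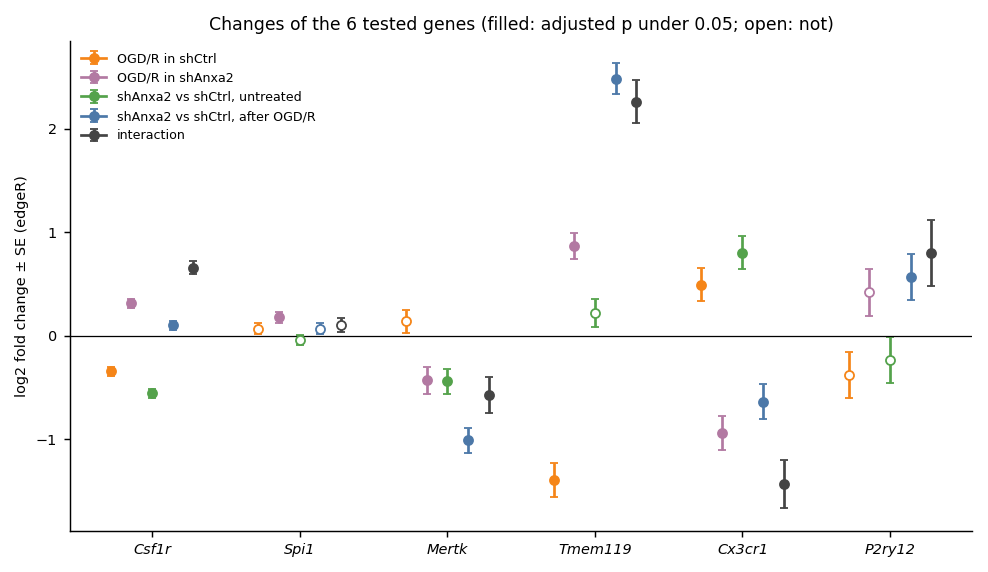
Log2 fold changes with standard errors from edgeR for the 6 genes tested, in 4 comparisons and the interaction (filled points have an adjusted p under 0.05, open points do not). Tmem119 and Csf1r fell after OGD/R in shCtrl cells and rose in shAnxa2 cells, Cx3cr1 did the reverse, and Spi1 stayed between -0.04 and 0.18.

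**Figure D4:**
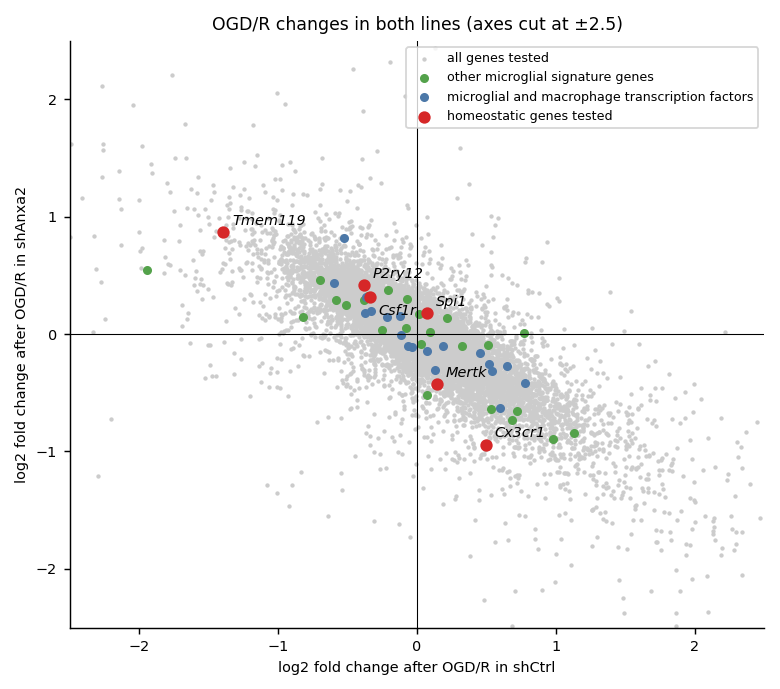
Log2 fold change after OGD/R in shCtrl cells (horizontal) against shAnxa2 cells (vertical) for all 11626 genes tested, with the 6 homeostatic genes in red and the lists of other signature genes and transcription factors in colour. The 60 genes beyond 2.5 on either axis are not drawn, and 82.0% of genes have opposite signs on the axes.

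Genes whose log2 CPM ran most like that of a homeostatic gene over the 12 libraries were taken from the 9516 genes that averaged 5 CPM or more, as a description over libraries that fall into 4 groups. Csf1r ran most like Relch and Ctbp2 (Pearson r 0.990 each) and Tmem119 most like Rpl7l1 (0.995) and Prmt5 (0.987). Mertk ran most like Dcun1d4 (0.958) and Atg16l2 (0.955), and Spi1 like Sdf2 (0.888) and Ubxn11 (0.869). Cx3cr1 and P2ry12 were below that level.

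Ligands and relatives of these receptors were next examined. For CSF1R, Csf1 was expressed at 112 ± 2.41 CPM in shCtrl-CTRL, 100.4 ± 5.22 in shCtrl-OGDR, 160.1 ± 6.20 in shAnxa2-CTRL and 165 ± 2.25 in shAnxa2-OGDR, and Il34 did not pass the filter (3 to 11 counts per library). Csf1 was thus higher in shAnxa2 cells, 1.43-fold without OGD/R (edgeR adjusted p = 2.1e-09) and 1.64-fold after it (2.7e-12). Its interaction of 0.21 ± 0.07 (adjusted p = 0.0088) was lost under upper-quartile scaling (0.13, 0.079). Cx3cl1, the ligand of CX3CR1, had 2 to 11 counts per library and did not pass the filter.

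For MERTK, the bridging ligand Pros1 stood at 5.67 ± 0.86, 5.04 ± 0.31, 3.69 ± 0.70 and 2.995 ± 0.33 CPM in shCtrl-CTRL, shCtrl-OGDR, shAnxa2-CTRL and shAnxa2-OGDR. It was lower in shAnxa2 cells by log2 fold changes of -0.62 ± 0.16 without OGD/R (edgeR adjusted p = 0.0017) and -0.76 ± 0.17 after it (0.00036). Gas6, the other bridging ligand, and the sister receptors Axl and Tyro3 did not pass the filter, with 0 to 13, 0 to 17 and 0 to 1 counts per library. Of the TAM receptors, Mertk was thus the sole member tested in these cells.

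P2ry13 and P2ry6 encode nucleotide receptors related to P2ry12. P2ry13 fell from 5.89 ± 0.98 to 3.31 ± 0.61 CPM after OGD/R in shCtrl cells (edgeR adjusted p = 0.00058) and was 3.99 ± 0.46 and 4.49 ± 1.31 in untreated and treated shAnxa2 cells. P2ry6, a UDP receptor linked to phagocytosis, fell from 19.6 ± 0.88 to 12.1 ± 1.57 in shCtrl cells (adjusted p = 6.7e-05) and was 10.2 ± 3.21 and 14.2 ± 0.77 in the shAnxa2 groups. The interactions were 0.97 ± 0.27 (adjusted p = 0.0032) and 1.16 ± 0.19 (1.1e-05), of the same sign as that of P2ry12.

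Lectins related to Siglech were expressed although Siglech was nearly absent, and all 3 named here moved with the sign of Cx3cr1. Cd33 went from 55.0 ± 2.70 to 120.3 ± 5.43 CPM after OGD/R in shCtrl cells and from 101.7 ± 8.32 to 56.6 ± 1.62 in shAnxa2 cells. Siglec1, a sialoadhesin of macrophages, went from 75.3 ± 3.82 to 138 ± 5.74 and from 97.3 ± 5.09 to 70.6 ± 1.70. Siglece, an inhibitory lectin, went from 4.32 ± 0.34 to 10.5 ± 1.41 and from 6.99 ± 0.56 to 3.65 ± 1.27. Their interactions were -1.97, -1.34 and -2.22 (edgeR adjusted p = 6.1e-16, 8.2e-14 and 1.4e-08). These 3 genes were named for the size of their interaction, so its size and p-value are no separate evidence. The interaction was higher for 5 and lower for 5 of the 15 ligands, partners and relatives tested, beside 34.9% and 35.1% of all genes. Of the 15 ligands, partners and relatives tested, 7 rose and 5 fell after OGD/R in shCtrl cells, 3 rose and 6 fell after it in shAnxa2 cells, 7 were higher and 7 lower with the knockdown, and 5 were higher and 7 lower with it after OGD/R. Over all genes tested, the shares in the same order were 32.4% and 31.0%, 28.2% and 26.8%, 29.5% and 29.7%, and 33.8% and 34.2%. The medians were -0.10, -0.09, 0.12 and -0.15 on the log2 scale, beside 0.0045, 0.0044, 0.00073 and -0.0033 over all genes.

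In CSF1R signalling, all 24 genes of the list passed the filter. OGD/R raised 11 and lowered 7 in shCtrl cells and raised 9 and lowered 9 in shAnxa2 cells, with medians of 0.17 and 0.06 on the log2 scale beside 0.0045 and 0.0044 over all genes. The genes called, 18 of 24 in each line, compare with 63.4% and 55.0% of all genes. In shAnxa2 cells against shCtrl cells, 10 were higher and 9 lower without OGD/R, and 5 were higher and 11 lower after it (medians 0.02 and -0.13), where 59.2% and 67.9% of all genes were called. The adaptor Dok2 fell from 30.2 ± 2.84 to 6.84 ± 0.46 CPM after OGD/R in shCtrl cells and rose from 6.52 ± 0.39 to 14.5 ± 0.29 in shAnxa2 cells. Mapk3, encoding ERK1, rose from 26.2 ± 0.64 to 57.2 ± 8.07 in shCtrl cells and fell from 39.9 ± 2.43 to 23.6 ± 2.85 in shAnxa2 cells. The interactions were 3.30 and -1.89 (edgeR adjusted p = 6.2e-16 and 2.6e-12). Both genes were named for the size of their interaction, which was higher for 8 and lower for 10 of the 24 genes.

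Among microglial and macrophage transcription factors other than Spi1 and Sall1, 19 of 20 passed the filter. After OGD/R, the shAnxa2 cells had 3 at a higher and 14 at a lower level than the shCtrl cells, and the median log2 fold change was -0.34 beside -0.0033 over all genes. Of all genes, 33.8% were higher and 34.2% lower in that comparison. Without OGD/R, 3 were higher and 9 lower (median -0.10), beside 29.5% and 29.7% of all genes. OGD/R raised 8 and lowered 7 in shCtrl cells and raised 5 and lowered 6 in shAnxa2 cells (medians -0.04 and -0.10), where 63.4% and 55.0% of all genes were called. Cebpa, a myeloid differentiation factor, stood at 28.6 ± 1.84 and 19.9 ± 2.31 CPM in untreated and treated shCtrl cells and at 6.25 ± 0.23 and 11.1 ± 0.97 in shAnxa2 cells, 4.59-fold and 1.80-fold lower (edgeR adjusted p = 9.6e-15 and 3.9e-08).

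The difference between the lines changed sign with the treatment for Runx1, Bhlhe41, Irf8 and Tgfbr1, and not for Smad3. Cebpa, Runx1 and Bhlhe41 were named for the size of their interaction, which was higher for 7 and lower for 9 of the 19 factors tested. Runx1 was 1.42-fold lower in shAnxa2 cells without OGD/R and 1.44-fold higher after it, with an interaction of 1.03 ± 0.10. Bhlhe41 was 1.47-fold higher without OGD/R and 1.56-fold lower after it (interaction -1.19 ± 0.08), and Irf8, which is needed for microglial development, 1.16-fold higher and 1.46-fold lower (-0.77 ± 0.07). Smad3, a mediator of TGF-β signals that maintain homeostatic microglia, was 1.61-fold lower in shAnxa2 cells after OGD/R (edgeR adjusted p = 6.6e-09), and untreated the log2 fold change was -0.07 (adjusted p = 0.412). The receptor gene Tgfbr1 was 1.41-fold higher in shAnxa2 cells after OGD/R (adjusted p = 4.2e-08) and 1.13-fold lower without it (0.0083), a call lost without shAnxa2-CTRL replicate 3 (0.059).

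Of 32 other microglial signature genes, 24 passed the filter. OGD/R raised 9 and lowered 8 in shCtrl cells and raised 7 and lowered 6 in shAnxa2 cells, and with the knockdown 11 were higher and 9 lower without OGD/R and 8 and 8 after it. Of all genes tested, 63.4%, 55.0%, 59.2% and 67.9% were called in these 4 comparisons. The median log2 fold change of the list lay between 0.02 and 0.07, and that of all genes between -0.0033 and 0.0045. Il10ra, the ligand-binding chain of the IL-10 receptor, rose from 27.1 ± 2.79 to 53.4 ± 5.87 CPM after OGD/R in shCtrl cells and fell from 42.7 ± 1.24 to 22.99 ± 0.69 in shAnxa2 cells (interaction -1.87 ± 0.11). Entpd1, which encodes the ATP-degrading enzyme CD39, rose from 39.1 ± 1.57 to 62.7 ± 2.55 and fell from 49.3 ± 1.69 to 29.6 ± 2.64 (-1.42 ± 0.09). Il10ra and Entpd1 were named for the size of their interaction, which was higher for 10 and lower for 9 of the 24 genes tested.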

How the data were processed

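Per the sample titles, 12 BV2 libraries fall into 4 groups of 3. The study's methods describe biological replicates that each comprise technical ones, and no source ties a replicate number to a shared culture. The authors deposited raw read counts for 21834 genes. Per the labels, HISAT2 2.0.4 and mm39 were used, and the counting tool, its version and its strand setting for these cells are not given in the sources used here. The same table holds 12 per-sample columns of counts divided by size factors, which were not used. Replicates differed beyond counting error (chi-square per gene 3.89 to 12.7, highest for the pairs with shAnxa2-OGDR replicate 1, at 9.67 and 12.7), and all 12 libraries were kept as separate.

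Here edgeR 4.0.16 (R 4.3.3) was run with TMM scaling on the 11626 genes with at least 0.5 CPM in at least 3 libraries, in 1 quasi-likelihood model over 12 libraries, with Benjamini-Hochberg adjustment over all genes tested. A call is an adjusted p under 0.05, the stricter rule adds an absolute log2 fold change of 1 or more, SE is the log2 fold change divided by the square root of F, and 95% limits are 1.96 SE. In the 3 against 3 design, an exact permutation test of a single gene cannot go below p = 0.1. The fit was also run on simulated counts in which few genes changed, in 1 group. In these data 55.0% to 70.0% of genes were called, so that run cannot check the scaling or the fit here. Exon lengths come from the GENCODE annotation of GRCm38 and promoters from RefSeq, and coordinates of genes are those of the table. The labels name no batch, and one that ran along the groups cannot be told apart. The p-values measure the spread between these libraries.

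The members, gene lists and tests were chosen with earlier results of these data known. Genes named are the 9 members, Anxa2, from each of 4 lists the 3 with the largest interaction (adjusted p under 0.05, mean of at least 5 CPM), a fixed set of ligands, relatives and factors, and the 2 genes most correlated with each member of at least 5 CPM. Some genes that this rule covers are not reported here. Med12l, Hmgxb3, Cask and Sall3 were added after their values were seen. Alternatives were median-of-ratios and upper-quartile factors, no filter or a filter of 1 CPM, DESeq2 1.42.0, limma voom (3.58.1), the replicate block, fits of 2 groups, and leaving out each library. Tables and plots were made with pandas 2.3.3, numpy 2.4.6 and matplotlib 3.10.9 in Python 3.11.15.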

Additional observations from a re-analysis of the deposited data

Results flagged for a closer look

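The response to OGD/R differed between shCtrl and shAnxa2 cells, by edgeR's test of the difference of the log2 fold changes (shAnxa2 minus shCtrl), for 5 of the 6 homeostatic genes tested. The values were 2.26 for Tmem119, 0.80 for P2ry12, 0.66 for Csf1r, -0.57 for Mertk and -1.44 for Cx3cr1. Such a difference was called for 70.0% of all genes tested.

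Among the other genes named, the difference was 3.30 for Dok2, 1.35 for Cebpa, 1.16 for P2ry6, 1.03 for Runx1, 0.97 for P2ry13, 0.68 for Tgfbr1 and 0.21 for Csf1. It was negative for Siglece (-2.22), Cd33 (-1.97), Mapk3 (-1.89), Il10ra (-1.87), Entpd1 (-1.42), Siglec1 (-1.34), Bhlhe41 (-1.19), Irf8 (-0.77) and Smad3 (-0.62). Dok2, Cebpa, Runx1, Siglece, Cd33, Mapk3, Il10ra, Entpd1, Siglec1 and Bhlhe41 were named for the size of this difference. No test of single outlying libraries was made within the groups of 3.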

How the results depend on the processing

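Of the 594 values of the homeostatic genes under the alternatives, 573 kept their direction and their side of the threshold, 20 lost a call and 1 changed sign. Among the 594 are fits that left out a library from outside the groups compared, where a value could hardly move. Sign changes were looked for in Anxa2, the homeostatic genes tested and the genes named from the lists and the fixed set. All were of values not called. Under upper-quartile factors they were Spi1 for the knockdown without OGD/R (0.0016) and Csf1 for OGD/R in shAnxa2 cells (-0.0015). The others were P2ry13 for OGD/R in shAnxa2 cells without shAnxa2-OGDR replicate 1, and the Pros1 interaction without shAnxa2-CTRL replicate 2. Over all libraries left out in turn, that P2ry13 value ranged from -0.026 to 0.39 and that Pros1 value from -0.24 to 0.019. Leaving out 1 library at a time moved the number of homeostatic genes raised by OGD/R in shCtrl cells between 0 and 1, lowered by it in shAnxa2 cells between 1 and 2, higher with the knockdown after OGD/R between 1 and 3, and with a higher interaction between 2 and 3. Fewer libraries enter those fits and the fold changes moved as well, and the cause was not tested. Counts of genes near 2 CPM, such as P2ry12, and the trace counts of Gpr34 and Siglech limit what can be detected at this depth.

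No strong pairing of libraries by replicate number was seen. The deviations of same-numbered libraries from their group means correlated between -0.050 and 0.13 over 18 pairs, with 1 pair above 0.1. Differently numbered pairs lay between -0.096 and 0.083, and a weak shared effect cannot be told apart from none here. With the replicate number as a block, OGD/R in shCtrl cells raised 1 and lowered 2 homeostatic genes, as without it. The block changed no call of Anxa2, the homeostatic genes tested or the genes named from the lists and the fixed set. The other genes named were not compared in this way.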
